A study of Bos taurus with 90 samples.

Results

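The liver transcriptomes of Charolais (CH) and Holstein-Friesian (HF) steers were compared at the end of the first high-concentrate phase (H1). The 36 libraries whose labels give the H1 diet were used, 20 from CH and 16 from HF steers, of 90 libraries in the series. CH is a beef breed and HF a dairy breed. Under H1 both breeds had ad libitum access to feed, a ration of rolled barley, soya bean meal, molasses, minerals and vitamins with restricted grass silage. Within each breed the sequenced steers came from the extremes of residual feed intake (RFI), the difference between the feed an animal eats and the feed its size and growth predict, low RFI being the efficient state. Low RFI steers gave 9 CH and 7 HF libraries, and high RFI steers gave 11 CH and 9 HF libraries. The steers were bought from commercial herds, so that breed and herd of origin cannot be told apart. According to the paper, CH steers were younger on average than HF steers when H1 began, and heavier during it. Breed thus cannot be told apart from age or size either. RFI was ranked within breed, so that "low RFI" does not mean the same intake in CH as in HF. Zero-grazed grass (ZG; 6 CH and 18 HF libraries) and a second high-concentrate phase (H2; 17 CH and 13 HF libraries) followed and are used only to set the H1 values in context.

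The liver makes most of the proteins of blood plasma, converts amino acids, lipids and methyl donors for other tissues, and inactivates reactive compounds by joining them to glutathione and other groups. It also holds resident and passing leukocytes, whose transcripts are part of any biopsy. Cattle breeds differ both in regulatory alleles, which set the level of single transcripts, and in growth and metabolism, which can move many transcripts at once.

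Between 9097695 and 47640205 reads per H1 library were counted on genes. The fibrinogen chains FGG and FGA, which hepatocytes secrete for clotting, were at least 6283 and 6094 CPM (read counts scaled to a common library size) in every H1 library. On 2000 variable genes the first component held 19.8% of the variance and overlapped between the breeds (-37.1 to 26.8 in CH and -29.6 to 24.9 in HF), and the second held 7.49%, with CH libraries between -5.86 and 17.8 and HF libraries between -37.3 and 6.90. HF steer 5632 (low RFI) stood at the HF end of that component and had the lowest median correlation with the other libraries, 0.952. The label of steer 1797 is CH under H1 and HF under H2. Where leaving out either library changed a call or moved a fold change of a described gene by over 1.5 times, the fold change or adjusted p without it is given.

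A total of 568 of 13454 genes, or 4.22%, differed between the breeds under H1 at an adjusted p under 0.1 in edgeR's quasi-likelihood test with RFI group as covariate. Such genes are described as called, and fold changes are CH over HF. More of the called genes were lower in CH than higher. Expression was lower in CH for 411 genes (3.05% of those tested) and higher for 157 (1.17%), although the median log2 fold change of all genes tested was 0.00 and 50.2% of them lay below 0. An unadjusted p under 0.05 was obtained for 1977 genes, and the stricter adjusted p under 0.05 was met by 352. Without steer 5632 the number called was 399, of which 366 were among the 568, and without steer 1797 it was 463, of which 454 were.

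Most of the breed differences were small. The median log2 fold change of the called genes was 0.40 for those higher in CH and -0.42 for those lower, whereas the median absolute value over all genes tested was 0.08. A log2 difference under 0.5 was found for 102 of the 157 higher genes and for 255 of the 411 lower genes. A difference of 1 or more was found for 16 and 40 genes, and of 2 or more for 1 and 7 genes. The ranges of CH and HF overlapped for every one of the 13454 genes, so the breeds differed in typical level and no single transcript sorted the 36 steers by breed. The values of p and fold change for every gene are shown in the plot of all genes.

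**Figure D1:**
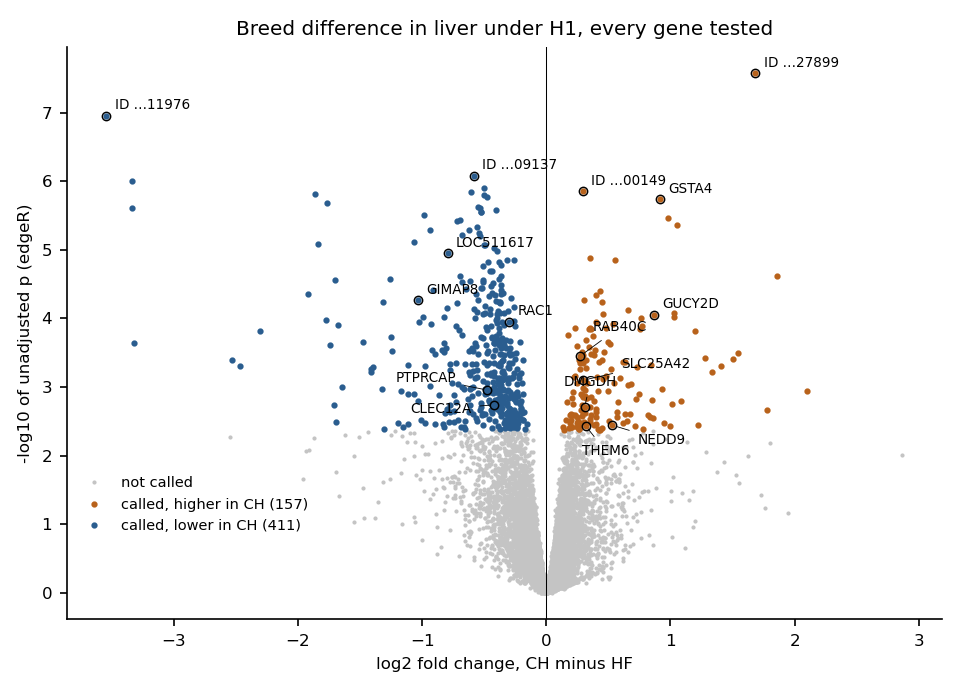
Each point is 1 of 13454 genes tested under H1, with the log2 fold change of CH minus HF on the x axis and -log10 of the unadjusted edgeR p on the y axis. Orange points are the 157 genes called higher in CH and blue points the 411 called lower, and circles mark the 12 called genes with a symbol and the 4 identifiers without one that are described (shown by their last 5 digits). The blue arm is denser and reaches further from 0.

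The counts carry Ensembl identifiers without gene names. Symbols were available for 328 identifiers, those that the study lists for its RFI comparisons, and 324 of these were tested. They were thus picked on these animals for RFI and not for breed. The study lists GSTA4, GUCY2D and RAC1 for RFI in HF steers under H1, and GIMAP4 and LOC768255 in CH steers under H2. Every other named gene also came from one of its RFI lists. For genes picked this way, a breed effect that varies with RFI group is partly built in by the choice. Of the 324, 12 were called, which is 3.70% and close to the 4.22% of all genes tested, with 7 higher and 5 lower in CH. The other 556 called genes have no symbol here.

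Among the named genes higher in CH, GSTA4 (ENSBTAG00000004288) had the smallest p. It encodes a glutathione transferase that removes 4-hydroxynonenal, a reactive aldehyde released when membrane lipids are oxidised. GSTA4 ranged from 93.4 to 567 CPM with a median of 276 in the 20 CH libraries, and from 83.7 to 371 CPM with a median of 151 in the 16 HF libraries. All but 1 CH steer lay above the HF median, while 2 HF steers lay above the CH median. The difference was 0.92 ± 0.16 on the log2 scale (SE, edgeR adjusted p = 0.00212), a fold of 1.89. It was 1.23 ± 0.24 between low RFI steers and 0.68 ± 0.21 between high RFI steers, and the difference between these values did not pass the test (p = 0.0859, adjusted p = 0.584). Among low RFI steers the only CH library that overlapped the HF range was the lowest one, at 93.4 CPM.

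The other conjugation and detoxification genes did not pass the test. Of 10 tested, GSTA4 was the only one called (10.0%, beside 4.22% of all genes tested), 8 lay above 0 and 2 below, and the median log2 fold change was 0.05. The identifiers that carry the symbol GSTM1, a second glutathione transferase class, had values of 0.19 ± 0.15 and 0.17 ± 0.17 (adjusted p = 0.617 and 0.710). EPHX1, which hydrolyses epoxides, had a value of 0.11 ± 0.09 and CYP3A5, an oxidase of drugs and steroids, 0.06 ± 0.09.

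GUCY2D (ENSBTAG00000008773), a membrane guanylate cyclase best known from photoreceptors, was also higher in CH. It ranged from 1.11 to 5.80 CPM with a median of 2.52 in CH and from 0.780 to 2.80 CPM with a median of 1.496 in HF. Of the 20 CH steers 18 lay above the HF median and only 1 of 16 HF steers lay above the CH median. The log2 fold change was 0.87 ± 0.20 (adjusted p = 0.0116). Between low RFI steers it was 1.65 ± 0.25, with every CH library (2.27 to 5.80 CPM) above every HF library (0.780 to 1.45 CPM). Between high RFI steers it was 0.30 ± 0.22, and the ranges were 1.11 to 4.56 and 1.45 to 2.80 CPM. The difference of 1.36 ± 0.33 between these breed effects had an unadjusted p of 2.0e-04 and an adjusted p of 0.224, so it was not called. No gene was called in that test (0 of 13454 genes by edgeR, 0%), while 1271 had an unadjusted p under 0.05. The study lists GUCY2D for RFI in HF steers under H1. Its unadjusted p in that test is therefore not independent of how the gene was picked.

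Enzymes and carriers of intermediary metabolism were among the remaining genes higher in CH. DMGDH (ENSBTAG00000002110), the mitochondrial dimethylglycine dehydrogenase of choline breakdown, ranged from 146 to 317 CPM with a median of 197 in CH and from 111 to 196 CPM with a median of 162 in HF. Of the 20 CH libraries 10 lay above every HF library. On the log2 scale the difference was 0.31 ± 0.09 (adjusted p = 0.0643). The call was lost without CH steer 1496 (adjusted p = 0.1003), CH steer 1831 (0.101), HF steer 2064 (0.110) or HF steer 5632 (0.116).

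SLC25A42 (ENSBTAG00000001816), which carries coenzyme A into mitochondria, ranged from 19.03 to 43.2 CPM with a median of 31.4 in CH and from 19.3 to 30.8 CPM with a median of 24.5 in HF. A total of 12 CH libraries lay above the HF range and 1 below it. This gave a log2 fold change of 0.30 ± 0.08 (adjusted p = 0.0370). THEM6 (ENSBTAG00000005063), a member of the thioesterase superfamily, ranged from 2.25 to 5.51 CPM (median 3.84) in CH and from 2.16 to 4.13 CPM (median 2.99) in HF. Its log2 fold change of 0.32 ± 0.10 lay near the threshold (adjusted p = 0.0924), and the call was kept in 14 of the 36 fits that left out 1 library, with an adjusted p of up to 0.172 in the others, the highest without HF steer 5632, and 0.119 without steer 1797. In limma-voom with quality weights THEM6 was not called (adjusted p = 0.137).

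RAB40C (ENSBTAG00000007880), a small GTPase that brings substrates to a ubiquitin ligase, ranged from 9.68 to 16.2 CPM with a median of 13.0 in CH and from 7.63 to 13.6 CPM with a median of 10.5 in HF. The breeds overlapped over much of their range, with 18 of 20 CH steers above the HF median. In the fit the log2 fold change was 0.28 ± 0.07 (adjusted p = 0.0227). NEDD9 (ENSBTAG00000006287), a scaffold protein of integrin signalling, ranged from 25.5 to 102 CPM with a median of 36.3 in CH and from 17.9 to 48.1 CPM with a median of 24.5 in HF. The CH values were skewed, and the highest belonged to steer 1797. NEDD9 differed by 0.53 ± 0.17 on the log2 scale (adjusted p = 0.0910), and without steer 1797 it was 0.45 (adjusted p = 0.132) and without HF steer 5632 it was 0.56 (0.111). The call was kept in 12 of the 36 fits that left out 1 library, and was lost in limma-voom with quality weights (adjusted p = 0.106).

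**Figure D2:**
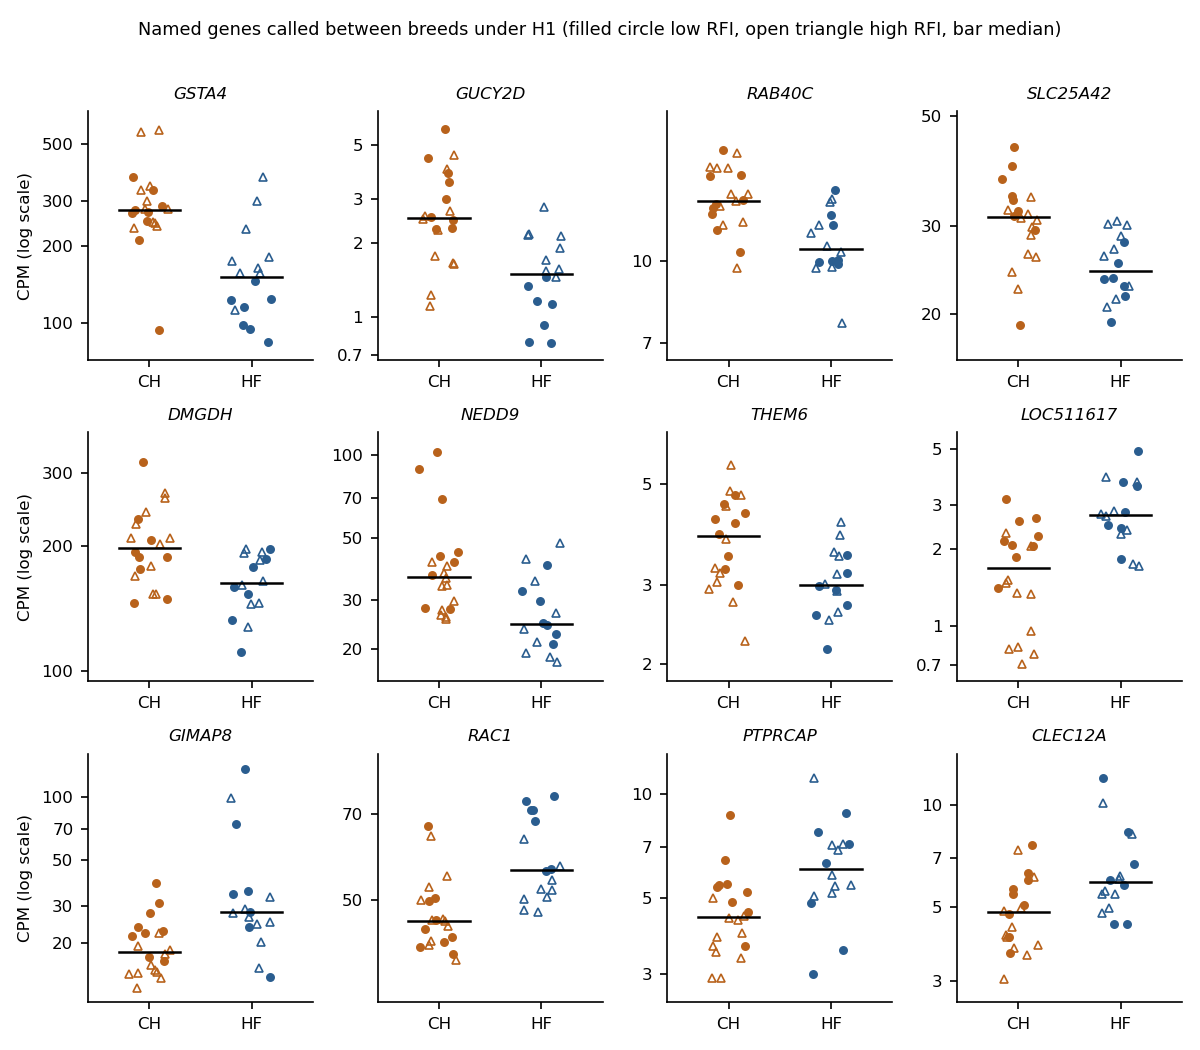
CPM on a log scale for the 12 called genes with a symbol, 1 point per H1 library. Filled circles are low RFI and open triangles high RFI steers, orange CH (n = 20) and blue HF (n = 16), and the bar is the median of the breed. The first 7 panels are higher in CH and the last 5 lower, and the breeds overlap in each.

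Leukocyte genes made up 3 of the 5 named genes lower in CH. GIMAP8 (ENSBTAG00000014402), a GTPase of the immunity-associated family expressed in lymphocytes, ranged from 12.2 to 38.6 CPM with a median of 18.1 in CH and from 13.7 to 137 CPM with a median of 28.1 in HF. The HF values were the more spread, with 3 HF libraries above every CH library and 2 CH libraries below every HF library. The log2 fold change was -1.04 ± 0.22 (adjusted p = 0.00941), a fold of 0.488. It was -1.005 ± 0.34 between low RFI and -1.06 ± 0.31 between high RFI steers. In bulk tissue, fewer cells of a type and less RNA per cell cannot be told apart.

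PTPRCAP (ENSBTAG00000004782), a protein bound to the CD45 phosphatase of lymphocytes, ranged from 2.91 to 8.67 CPM with a median of 4.39 in CH and from 3.00 to 11.1 CPM with a median of 6.06 in HF. Of the 16 HF steers 14 lay above the CH median. PTPRCAP differed by -0.47 ± 0.13 on the log2 scale (adjusted p = 0.0459) and was not called in limma-voom with quality weights (0.131). It was -0.10 ± 0.18 between low RFI steers and -0.78 ± 0.17 between high RFI steers, and the test of that difference gave p = 0.00985 and an adjusted p of 0.396.

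CLEC12A (ENSBTAG00000012815), an inhibitory lectin of myeloid cells, ranged from 3.06 to 7.61 CPM with a median of 4.81 in CH and from 4.43 to 12.1 CPM with a median of 5.91 in HF. The highest HF value belonged to steer 5632. CLEC12A differed by -0.42 ± 0.13 on the log2 scale (adjusted p = 0.0614) and by -0.33 without that steer (adjusted p = 0.172). The call was also lost without CH steer 1816 (0.103), HF steer 1811 (0.136) or HF steer 2069 (0.105).

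GIMAP4 (ENSBTAG00000046257), a second gene of the immunity-associated family, had the wider difference but was not called. It ranged from 4.93 to 240 CPM with a median of 33.97 in CH and from 7.57 to 542 CPM with a median of 122 in HF. The values fell into a low and a high range in both breeds: under a limit of 20 CPM, set after the values were seen, lay 10 of 20 CH libraries (2 of 9 low RFI and 8 of 11 high RFI) and 2 of 16 HF libraries (1 of 7 and 1 of 9). The log2 fold change was -1.62 ± 0.54 (adjusted p = 0.110). The threshold was passed in the DESeq2 Wald test (adjusted p = 0.0451) and in limma-voom with quality weights (0.0652). It was also passed without CH steer 1078 (0.0272), CH steer 950 (0.0874), HF steer 2266 (0.0726), HF steer 5613 (0.0813) or HF steer 5624 (0.0958).

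LOC768255 (ENSBTAG00000039928) had the same split as GIMAP4, with 10 CH and 2 HF libraries under 20 CPM. Its CH values ran from 1.61 to 213 CPM (median 25.3) and its HF values from 5.36 to 493 CPM (median 92.3). In the fit the log2 fold change was -1.87 ± 0.63 (adjusted p = 0.114). The threshold was passed in the DESeq2 Wald test (0.0509), in limma-voom with quality weights (0.0376), and without CH steer 1078 (0.0301), HF steer 2266 (0.0807) or HF steer 5613 (0.0910).

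Of 12 leukocyte genes with a symbol, grouped after the results were known, 11 were tested and 3 were called, all lower in CH. That is 27.3%, beside 4.22% of all genes called in either direction and 3.05% called lower. A further 2 of the 11 lay above 0 and 6 below. The median log2 fold change of the group was -0.21, beside 0.00 over all genes. FCRL1, a receptor-like protein of B cells, had a value of -0.75 ± 0.32 (adjusted p = 0.241). DOCK8, an exchange factor that leukocytes need for migration, had a value of -0.19 ± 0.08 (adjusted p = 0.284), and FCGR2B, an inhibitory Fc receptor, -0.12 ± 0.14. The level of RGS1, a regulator of chemokine signalling in leukocytes, was 1.06 CPM in CH and 1.08 CPM in HF at the median (log2 fold change 0.04 ± 0.24). Defining markers of T cells, B cells, Kupffer cells and hepatocytes have no symbol here, and the share of leukocytes in each biopsy was not tested.

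The last genes lower in CH were RAC1 and LOC511617. RAC1 (ENSBTAG00000009233), a small GTPase that organises the actin cytoskeleton and takes part in insulin-stimulated glucose uptake, ranged from 39.6 to 66.6 CPM with a median of 46.2 in CH and from 47.7 to 74.9 CPM with a median of 56.3 in HF. Of the 20 CH libraries 13 lay below the HF range and 5 of 16 HF libraries lay above the CH range. RAC1 differed by -0.30 ± 0.07 on the log2 scale (adjusted p = 0.0132). It was -0.51 ± 0.09 between low RFI and -0.13 ± 0.09 between high RFI steers, with a p of 0.00565 and an adjusted p of 0.373 for the difference.

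LOC511617 (ENSBTAG00000039588) ranged from 0.707 to 3.17 CPM with a median of 1.69 in CH and from 1.71 to 4.91 CPM with a median of 2.73 in HF. Every HF steer lay above the CH median, and 10 CH libraries lay below the HF range. The log2 fold change was -0.79 ± 0.16 (adjusted p = 0.00418). It was larger in size between high RFI steers (-1.07 ± 0.21) than between low RFI steers (-0.47 ± 0.22), with p = 0.0548 and an adjusted p of 0.532 for the difference.

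The other roles among the named genes, grouped in the same way and without a test, held few or no called members, and their shares stand beside 4.22% of all genes tested. Of 12 amino acid and one-carbon genes 1 was called (DMGDH, 8.33%), with a median log2 fold change of 0.09. GLDC, the decarboxylase of the glycine cleavage system, lay below 0 (-0.23 ± 0.08, adjusted p = 0.138), and passed the threshold without HF steer 5632 (0.0680) or HF steer 5624 (0.0708). Of 13 lipid and acyl-CoA genes 2 were called (SLC25A42 and THEM6, 15.4%), with a median of 0.05. CIDEC, a protein of lipid droplets, had a value of -1.26 ± 0.52 (adjusted p = 0.232) that passed the threshold without CH steer 307 (-1.69, adjusted p = 0.0715). Its size depended on few libraries, since CIDEC was at -0.17 without HF steer 2065 (adjusted p = 0.909), at -0.13 in the DESeq2 Wald test (0.934) and at -0.39 without the steers that have a library in another phase (0.921). The triglyceride synthase DGAT2 had a value of 0.06 ± 0.19. Of 12 small GTPases and their regulators 2 were called (RAC1 lower and RAB40C higher, 16.7%), with a median of 0.05.

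No acute phase, complement or coagulation gene was called (0 of 11). An unadjusted p under 0.05 in edgeR was obtained for 3 of the 11, beside 1977 of all 13454 genes tested. In this group 5 genes lay above 0 and 6 below, between -1.67 and 1.94, with a median log2 fold change of -0.03. HP, the acute phase protein that binds free haemoglobin, ranged from 30.2 to 3133 CPM with a median of 136 in CH and from 38.4 to 8255 CPM with a median of 192 in HF. The medians were close and the ranges wide in both breeds, with 3 of 20 CH and 6 of 16 HF libraries above 1000 CPM, a limit set after the values were seen. The log2 fold change of -1.67 ± 0.78 had an unadjusted p of 0.0391 and an adjusted p of 0.305, and without CH steer 364 it was -2.58 (adjusted p = 0.0860). The highest HP value belonged to HF steer 5632, and without it the log2 fold change was -1.04 (adjusted p = 0.689). In limma-voom with quality weights HP was at -0.95 (0.602). SERPINA3, an acute phase protease inhibitor, had a value of -0.51 ± 0.21 (adjusted p = 0.216). It passed in 1 of the 36 fits that left out 1 library (adjusted p = 0.0732), but not in the fit without HF steer 5632 (0.334). FGG and FGA had values of -0.04 ± 0.11 and -0.03 ± 0.10.

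None of 20 cell division genes and none of 17 stress and immediate early genes was called. An unadjusted p under 0.05 in edgeR was obtained for 2 genes in each group, beside 1977 of all 13454 genes tested. The medians were 0.07 and 0.13. SGO2, which protects the cohesion of centromeres, had a value of 0.35 ± 0.14 (adjusted p = 0.202). The kinase gene SIK1 had a value of 0.48 ± 0.23 (adjusted p = 0.328), and TNFAIP3, an inhibitor of NF-kB signalling, -0.21 ± 0.10 (adjusted p = 0.332). HSPA1A, an inducible heat shock protein, had a value of 0.21 ± 0.12 (adjusted p = 0.416).

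**Figure D3:**
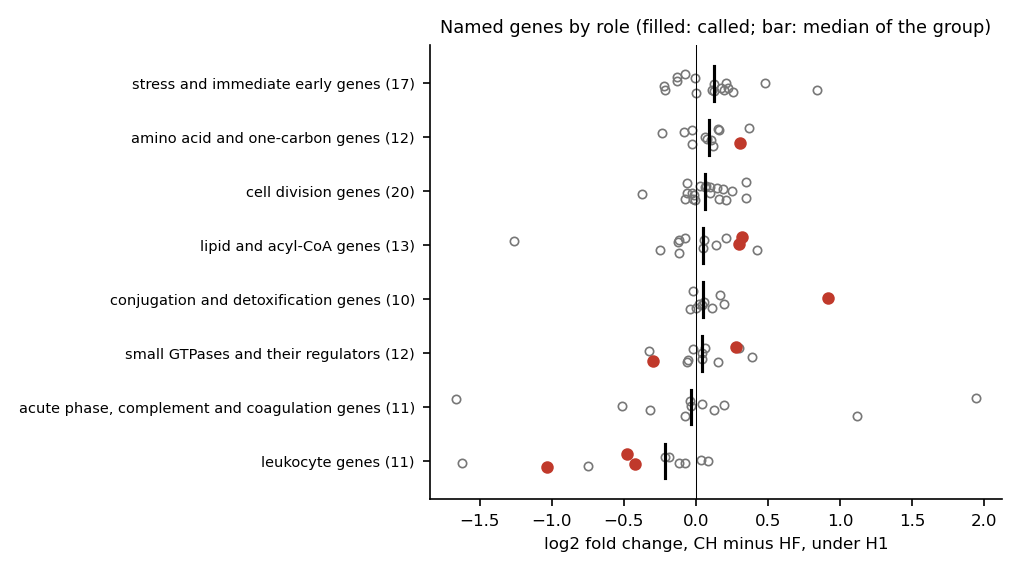
Log2 fold change of CH minus HF under H1 for the named genes of 8 role groups, 1 point per gene, with the number of genes tested in brackets. Filled red points are called genes and black bars the median of the group. The leukocyte genes have the lowest median (-0.21), and the wide points of the acute phase group are open, that is, not called.

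The genes with the smallest p carried no symbol. ENSBTAG00000027899 ranged from 0.707 to 4.93 CPM with a median of 2.39 in CH and from 0.291 to 1.77 CPM with a median of 0.563 in HF. A total of 15 CH libraries lay above every HF library and 10 HF libraries below every CH library. Its log2 fold change was 1.68 ± 0.24 (adjusted p = 3.57e-04), with nearly the same value in low RFI (1.68 ± 0.37) and high RFI steers (1.69 ± 0.33). ENSBTAG00000000149 ranged from 38.6 to 51.3 CPM (median 43.3) in CH and from 27.3 to 44.9 CPM (median 35.1) in HF. That difference was small and regular, with 13 of 16 HF libraries below every CH library, and its log2 fold change was 0.30 ± 0.05 (adjusted p = 0.00212).

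Among the genes lower in CH, ENSBTAG00000011976 had the largest log2 difference of all called genes, -3.54 ± 0.53 (adjusted p = 7.48e-04). It ranged from 0 to 0.672 CPM with a median of 0.168 in CH and from 0 to 9.46 CPM with a median of 1.35 in HF. No CH library and 8 of 16 HF libraries were above 1 CPM, a limit set after the values were seen, so the difference rested on part of the HF steers. Its size was smaller in limma-voom with quality weights (-2.22, adjusted p = 0.0936). ENSBTAG00000009137 ranged from 6.26 to 13.2 CPM (median 9.83) in CH and from 9.48 to 21.3 CPM (median 14.997) in HF. The shift was shared by most steers, since 11 of 16 HF libraries lay above every CH library, and the log2 fold change was -0.58 ± 0.10 (adjusted p = 0.00212).

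The same contrast was fitted within the later phases. Under ZG no gene was called by edgeR (0 of 13406, 0%), and DESeq2 called 14. An unadjusted p under 0.05 was obtained in edgeR for 395 genes, where 670 are expected if no gene differs. That comparison held 6 CH steers. Under H2 82 of 12959 genes were called (0.633%), 40 higher and 42 lower in CH, and 45 of them were among the 568 called under H1. These 45 were 54.9% of the H2 calls and 7.92% of the H1 calls. Some steers are in more than 1 phase, so that the phases are not independent.

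The difference between the breed effects of 2 phases was tested in one fit of all 90 libraries. No gene was called for H1 minus ZG (0 of 13945 by edgeR, 0%; 441 with an unadjusted p under 0.05, 1 called by DESeq2 and 0 by limma-voom). No gene was called for H1 minus H2 (0 of 13945, 0%; 299 with an unadjusted p under 0.05, 0 called by DESeq2 and 0 by limma-voom). No breed difference was thus shown to belong to H1 alone, although more genes were called under H1. Both counts at an unadjusted p under 0.05 were below the 697 expected if no gene differed. Equal breed effects were thus not shown either.

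Side by side, GSTA4 had a log2 fold change of 0.92 ± 0.16 under H1, 0.47 ± 0.28 under ZG and 0.79 ± 0.18 under H2, where it was also called (adjusted p = 0.0321). GUCY2D had values of 0.87 ± 0.20, 0.94 ± 0.26 and 0.84 ± 0.27, and these stayed close although only that of H1 was called. GIMAP8 had values of -1.04 ± 0.22, -1.14 ± 0.70 and -1.94 ± 0.33, and was called under H2 (adjusted p = 0.00274). The difference of H1 minus H2 for GIMAP8 was 0.98 ± 0.53 (p = 0.0651, adjusted p = 1). GIMAP4 (-2.65 ± 0.53, adjusted p = 0.0142) and LOC768255 (-3.18 ± 0.60, adjusted p = 0.00824) were called under H2, though not under H1. Their differences of H1 minus H2 had an unadjusted p of 0.402 and 0.392. Both genes were listed by the study for RFI in CH steers under H2, with lower levels in low RFI steers. Under H2 GIMAP4 lay below 20 CPM in every CH low RFI library and in some CH high RFI libraries. The H2 breed calls of GIMAP4 and LOC768255, and their H1 minus H2 differences, are therefore not independent of how the genes were picked.

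RAC1 had values of -0.30 ± 0.07 under H1, -0.31 ± 0.10 under ZG and -0.01 ± 0.08 under H2. For RAC1 the difference of H1 minus H2 was -0.29 ± 0.10 (p = 0.00635, adjusted p = 1). DOCK8 had values of -0.19 ± 0.08, -0.25 ± 0.18 and -0.68 ± 0.13, and was called under H2 (adjusted p = 0.00623), with p = 0.00199 and an adjusted p of 1 for H1 minus H2. NEDD9 had values of 0.53 ± 0.17, 0.00 ± 0.24 and 0.34 ± 0.21. CLEC12A had values of -0.42 ± 0.13, -0.24 ± 0.26 and 0.01 ± 0.20, and neither difference between phases was called for these genes.

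**Figure D4:**
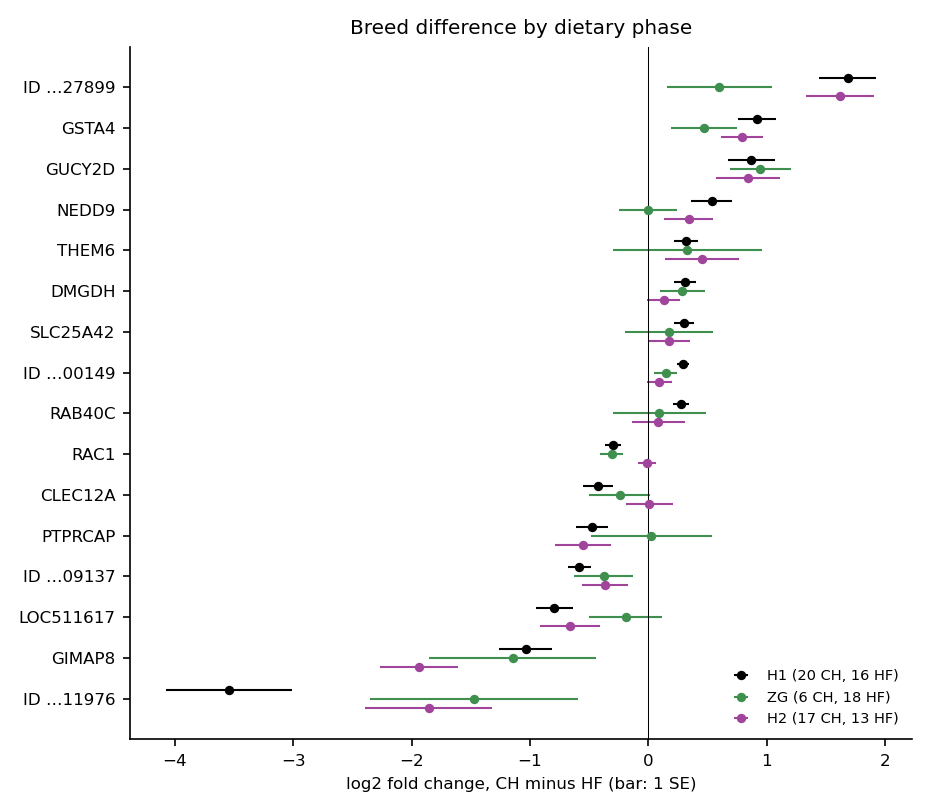
Log2 fold change of CH minus HF with 1 SE for the 12 called named genes and 4 identifiers (last 5 digits), fitted within H1 (black), ZG (green) and H2 (purple). GUCY2D lies between 0.84 and 0.94 in the 3 phases, whereas RAC1 is near -0.30 in H1 and ZG and near 0 in H2.

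Of the 36 H1 steers 7 CH and 6 HF have a library in another phase under the same number. For GIMAP4 the H1 library and a later library of one steer differed by a median of 1.21-fold over 14 pairs, and by at most 1.86-fold, while the H1 libraries spanned 110-fold. CH steer 307 had 8.73 CPM under H1, 8.12 under ZG and 6.04 under H2. CH steer 1816 had 130 CPM under H1 and 129 under ZG, and HF steer 5632 had 369, 523 and 367 CPM in the 3 phases. Both the low and the high range of GIMAP4 therefore returned in the same steers.

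GIMAP8 behaved alike, with a median of 1.22-fold and at most 1.77-fold between libraries of one steer, and an 11.2-fold span under H1. For GSTA4 the median was 1.30-fold and the highest 2.11-fold, in HF steer 5632, which had 94.2 CPM under H1 and 198 under H2. For GUCY2D the median was 1.33-fold and the highest 3.01-fold, in HF steer 2220, which had 1.33 CPM under H1 and 0.441 under H2. The GUCY2D mean was also lower under H2 than under H1 in HF (0.886 and 1.56 CPM) and in CH (1.56 and 2.80 CPM). A fold between phases thus includes any shift shared by the group. The H1 libraries spanned 6.77-fold for GSTA4 and 7.43-fold for GUCY2D.

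RAC1 varied little both within a steer and between steers. For RAC1 the median was 1.14-fold and the highest 1.74-fold, close to the 1.89-fold span of the H1 libraries. ENSBTAG00000011976 was the least steady of these genes within a steer. Its median was 1.68-fold and its highest 13.9-fold over 13 pairs, while the H1 libraries above 0 spanned 235-fold.

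The libraries that carry the number 1797 are left out of these pairs. GIMAP8 was at 22.8 CPM in the CH library under H1 and at 165 CPM in the HF library under H2, a 7.22-fold difference, and GIMAP4 at 56.7 and 294 CPM, a 5.18-fold difference. Both exceed every pair of libraries of another steer. The H1 library lay within the range of the other 19 CH libraries for 11 of the 12 called named genes, NEDD9 being the exception, and within the HF range for 9. Whether the libraries came from one animal was not tested.

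**Figure D5:**
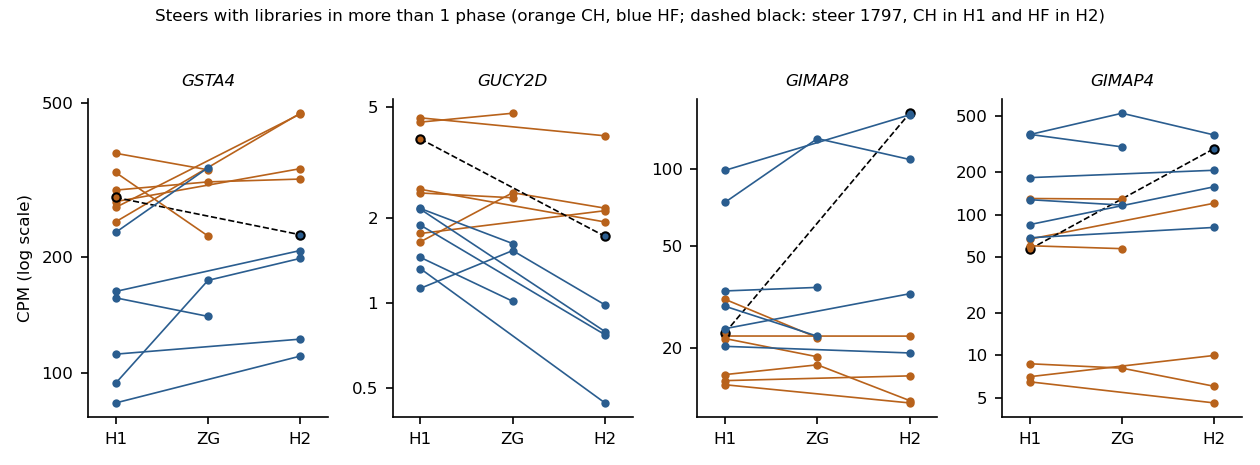
CPM on a log scale in the H1, ZG and H2 libraries of the 13 H1 steers that have a library in another phase, a line per steer, orange CH and blue HF. Apart from number 1797, the lines of GIMAP4 stay in the low or the high range, with at most 1.86-fold between libraries of a steer, and the dashed black line of number 1797 (CH under H1, HF under H2) is the steepest for GIMAP8.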

How the data were processed

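The authors prepared stranded mRNA libraries from liver biopsies and sequenced one end of each fragment. The reads were trimmed, aligned to UMD3.1 with STAR (version 2.5.3a per the submitters' notes) and counted per Ensembl gene. The deposited values are raw counts of 24616 genes, without normalization. The strand column counted is not given in the sources used here, so reads of overlapping and antisense genes cannot be told apart. The GSTM1 identifiers are uncertain, since near-identical copies can share reads.

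H1 libraries were fitted with edgeR 4.0.16 in R 4.3.3 (filterByExpr, TMM, robust quasi-likelihood, RFI group and breed, Benjamini-Hochberg over all genes tested). CPM are TMM-scaled. The SE is the absolute log2 fold change divided by the square root of F. ZG and H2 were fitted alike, and differences between phases in one fit of all 90 libraries. The test of the breed effect between RFI groups was added after the values were seen. Steer numbers in the labels mark the animals. The fits were also run on simulated counts, drawn without an RFI effect or repeated steers, and the outcome is not given here.

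The comparison and the gene lists were chosen with earlier results of these data known. Named were, in each direction, the 10 called genes with the smallest p and 5 with the largest change, called list members, HP and GSTM1, and 2 identifiers without a symbol. Symbols came from the identifiers the study's supplement pairs with names, and the RefSeq table paired 0. Just 44 of 901 symbols on 35 prepared lists were matched, at most 19.0% of a list, so list counts are void. Other genes were named by role after their values were seen. Alternatives used DESeq2 1.42.0 and limma 3.58.1.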

Additional observations from a re-analysis of the deposited data

Results flagged for a closer look

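A total of 6 of 48 sets of values (16 described genes in 3 groups of 7 to 9 libraries) held a library far from the rest of its group by Dixon's test, of which chance gives about 1 in 20. The CH high RFI group of 11 libraries was not among these groups, so its libraries were not screened. GIMAP8 was at 98.6 CPM in steer 2101 (HF, high RFI), where the next of 9 libraries was at 33.3. PTPRCAP was at 11.1 CPM in steer 5613 (HF, high RFI), with the next at 7.16. ENSBTAG00000011976 was at 9.46 CPM in steer 2064 (HF, high RFI), with the next at 4.62, and at 0.672 CPM in steer 1831 (CH, low RFI), with the next at 0.305. DMGDH was at 317 CPM in steer 1831 as well, with the next at 232. RAC1 was at 66.6 CPM in steer 950 (CH, low RFI), with the next at 50.6. The call of DMGDH was lost without steer 1831, and those of the other 4 genes were kept without the named steer.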

How the results depend on the processing

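The 568 genes called under H1 became 73 in low RFI libraries alone, 33 in high RFI libraries alone, 264 in one fit of all 90 libraries, 352 at an adjusted p under 0.05 and 16 without the 13 steers that have a library in another phase. The first 2 and the last of these hold fewer libraries. Leaving out each library in turn gave 399 to 747. The other settings gave 399 to 772, with 68.3% to 74.3% of the calls lower in CH. That share was 72.4% in the reported fit, 52.1% in low RFI libraries alone (35 higher, 38 lower), 69.7% in high RFI libraries alone, 78.0% in all 90 libraries, 76.7% at 0.05 and 50.0% without the steers of another phase (8 and 8). Under ZG DESeq2 called 14 genes, and leaving out a CH steer gave 0 to 7. Under H2 DESeq2 called 158, and leaving out an HF low RFI steer gave 68 to 82. For H1 minus ZG DESeq2 called 1 gene, and leaving out a steer of the small groups gave 0 to 1.

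Of the described genes 24 were rerun, and none changed direction in the settings in which it was tested. ENSBTAG00000011976, ENSBTAG00000027899, FCRL1 and CIDEC were below the filter in at least 1 setting, and genes near 0 such as RGS1, DGAT2 and FGG were not rerun. Without the steers of other phases the 12 named genes and 2 of the 4 identifiers were no longer called, ENSBTAG00000011976 fell under the filter on low counts, and ENSBTAG00000027899 was called (log2 fold change 1.6004, adjusted p = 0.0174). In one fit of all 90 libraries GIMAP8 (adjusted p = 0.163), RAB40C (0.787), SLC25A42 (0.625), PTPRCAP (0.535), CLEC12A (0.247), DMGDH (0.219), NEDD9 (0.104) and THEM6 (0.914) were not called; the cause was not tested.

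No paired analysis was possible because no steer number is shared by CH and HF libraries under H1. Between phases, a limma-voom fit with a replicate block for each steer (consensus correlation 0.191) gave 0 calls for H1 minus ZG and 0 for H1 minus H2, as did limma-voom with no block. The ZG comparison held 6 CH steers, which limits its precision.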
